A study of Mus musculus with 6 samples.

Results

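The D-type cyclins Ccnd1, Ccnd2 and Ccnd3, their kinases Cdk4 and Cdk6, and the retinoblastoma family Rb1, Rbl1 and Rbl2 are 8 of the 18193 mouse genes measured here. They were chosen by name, and each is read by its probe sets that carry exactly 1 gene symbol, 27 in all. The brightest probe set of a gene, by its mean signal, stands for it, and its other sets are given beside it.

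The cells were mPAC L20, a mouse pancreatic duct line. All of them received an adenovirus expressing Neurog3, the factor that starts endocrine differentiation, from the CMV promoter. A hairpin virus came first. On 3 arrays, called shControl, its hairpin was scrambled, and on the other 3, called shAtoh8, it was directed at Atoh8, which encodes a bHLH transcription factor. Both viruses were added at a multiplicity of infection of 40 infectious units per cell, and the cells were cultured for a further 44 to 46 h. The 3 replicates were independent experiments, and no cells without Neurog3 or without a hairpin virus were among the arrays, so both groups carry both kinds of virus. It is 1 cell line, and the labels name 1 hairpin virus per group.

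D cyclins are the part of the cell cycle machinery that growth signals act on. They bind Cdk4 or Cdk6, and the active kinases phosphorylate Rb1 and its relatives Rbl1 (p107) and Rbl2 (p130). The unphosphorylated RB proteins hold E2F factors in check, so their phosphorylation lets genes of DNA synthesis come on. Rbl1 and Rbl2 also join E2F4 and the MuvB proteins in the DREAM complex, which represses S phase and mitotic genes in cells out of cycle. In the pancreas, D cyclins with Cdk4 are known for their part in the growth of islet cells.

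Of the 8 genes, Ccnd3 was the one that fell on its main probe set, by 0.62 on the log2 scale (1.53-fold). Ccnd2 and Rbl1 read lower by similar amounts without passing the test, while Ccnd1, Rb1 and Rbl2 differed by less than 0.1. The difference was -0.21 for Cdk4 and 0.29 for Cdk6, and neither passed. In a culture measured in bulk, fewer cells of a kind and less RNA per cell cannot be told apart.

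Promoter sequences from RefSeq (GRCm38.p6), 250 bases before to 50 after a start, were found for 5 of the 8 genes. They are shown for Ccnd3, the gene that fell, whose table has 2 starts, for Rbl1, whose window holds an E2F motif, and for Cdk4, whose window holds 4 E-boxes. Letters are 5′ to 3′ on the gene's strand, and capitals mark a motif.
Ccnd3, chr17:47504801-47505100, + strand: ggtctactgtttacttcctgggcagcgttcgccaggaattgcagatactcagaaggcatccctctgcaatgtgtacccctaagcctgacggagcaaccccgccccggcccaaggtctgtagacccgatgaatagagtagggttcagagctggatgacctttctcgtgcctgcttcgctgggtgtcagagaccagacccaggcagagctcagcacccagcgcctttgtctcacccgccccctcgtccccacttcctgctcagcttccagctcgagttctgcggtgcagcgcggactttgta
Ccnd3, chr17:47593217-47593516, + strand: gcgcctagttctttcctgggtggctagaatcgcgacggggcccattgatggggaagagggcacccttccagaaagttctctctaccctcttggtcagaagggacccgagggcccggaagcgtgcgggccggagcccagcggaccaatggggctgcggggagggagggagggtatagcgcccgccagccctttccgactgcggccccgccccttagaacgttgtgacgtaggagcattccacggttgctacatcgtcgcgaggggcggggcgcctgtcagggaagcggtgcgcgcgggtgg
Rbl1, chr2:157204485-157204784, - strand: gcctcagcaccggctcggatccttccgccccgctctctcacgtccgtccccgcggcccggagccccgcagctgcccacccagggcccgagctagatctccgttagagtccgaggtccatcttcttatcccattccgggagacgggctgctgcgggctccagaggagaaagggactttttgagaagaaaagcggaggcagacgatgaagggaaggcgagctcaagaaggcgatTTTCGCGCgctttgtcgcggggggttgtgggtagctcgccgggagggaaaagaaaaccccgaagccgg
Cdk4, chr10:127063285-127063584, + strand: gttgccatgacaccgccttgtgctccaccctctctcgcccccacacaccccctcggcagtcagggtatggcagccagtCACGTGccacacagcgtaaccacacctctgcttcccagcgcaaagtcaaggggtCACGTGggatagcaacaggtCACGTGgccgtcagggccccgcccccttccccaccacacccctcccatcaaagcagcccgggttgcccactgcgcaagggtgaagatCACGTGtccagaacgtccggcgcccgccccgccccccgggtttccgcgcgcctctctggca

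The motifs searched on both strands were TTTCGCGC or TTTGGCGC for E2F, CACGTG for the E-box bound by Myc and related factors, and TTTGAA for the cell cycle homology region, a site of the MuvB proteins. Rbl1 had 1 E2F match, whose first base lies 18 bases before the start, a motif held by 0.813% of 32851 promoter windows. Cdk4 had 4 E-boxes, with first bases 172, 118, 98 and 11 bases before the start. At least 1 E-box was present in 7.15% of the windows, and 29 windows had 3 or more. Neither Ccnd3 window held any of these letters. Cdk6 had 1 E-box, and Rbl2 had 1 TTTGAA on the opposite strand, a motif found in 17.9% of windows. No match overlapped another. A match describes the letters and is not evidence of a bound site.

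The values are log2 signals that the authors made with RMA, a procedure that puts all arrays on one distribution. A log2 difference of 1 is a doubling, and signals of different probe sets cannot be compared as amounts of RNA. The array medians lay between 5.49 and 5.56. Of 7 duct and epithelial markers, Krt8, Krt18 and Krt19, keratins of duct cells, had mean signals of 13.9, 13.8 and 13.4, and 6 of the 7 had a negative log2 change (median -0.07). Epcam, an adhesion protein, fell with the replicate block (-0.73 ± 0.19 SE, limma adjusted p = 0.145 without it and 0.0463 with it), and Krt7 read -0.25 (0.263 and 0.154). These 2 were lower without overlap of the groups, as were 11.4% of all genes. Krt8, at 0.06, was higher without overlap. The part of these marker differences in the cyclin and RB values was not tested. Among 18 markers of acinar, endocrine, mesenchymal, endothelial and blood cells, none passed in either limma fit (0, against 1 at an unadjusted p under 0.05). The lowest and highest of their log2 changes were -0.36 and 0.37. All 4 acinar markers were higher in each replicate number, as were 4359 of the 18193 genes. Of these markers, 3 were higher without overlap of the groups, as were 2289 of the 18193 genes. Ptf1a, Cpa1 and Ctrb1 had mean signals of 3.95, 4.36 and 5.10, below every array median, and Cela1 had 8.63. Atoh8, the target of the hairpin, had signals of 8.75, 8.29 and 7.52 with the scrambled hairpin and of 7.83, 7.90 and 7.37 in shAtoh8, lower within all 3 replicate numbers but not past the test (limma adjusted p = 0.573, and 0.157 with the replicate number as a block). Its groups overlapped. Neurog3, the gene that the other virus carries, gave -0.57 ± 0.48 (SE) on its brighter probe set (limma adjusted p = 0.706, and 0.0330 with the block). Its other set gave 0.18 ± 0.17. Both sets had a mean signal of 6.3. Whether they read viral RNA, the cells' own or both is not known. The shAtoh8 replicate 2 array had a gap of 0.354 between the 3' and 5' actin control probe sets, against 0.107 to 0.202 on the other arrays, so results that rest on it are also given without it. That array also had the lowest mean of the hybridisation spike control sets, 9.48 against 9.85 to 10.10 on the others.

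**Figure D1:**
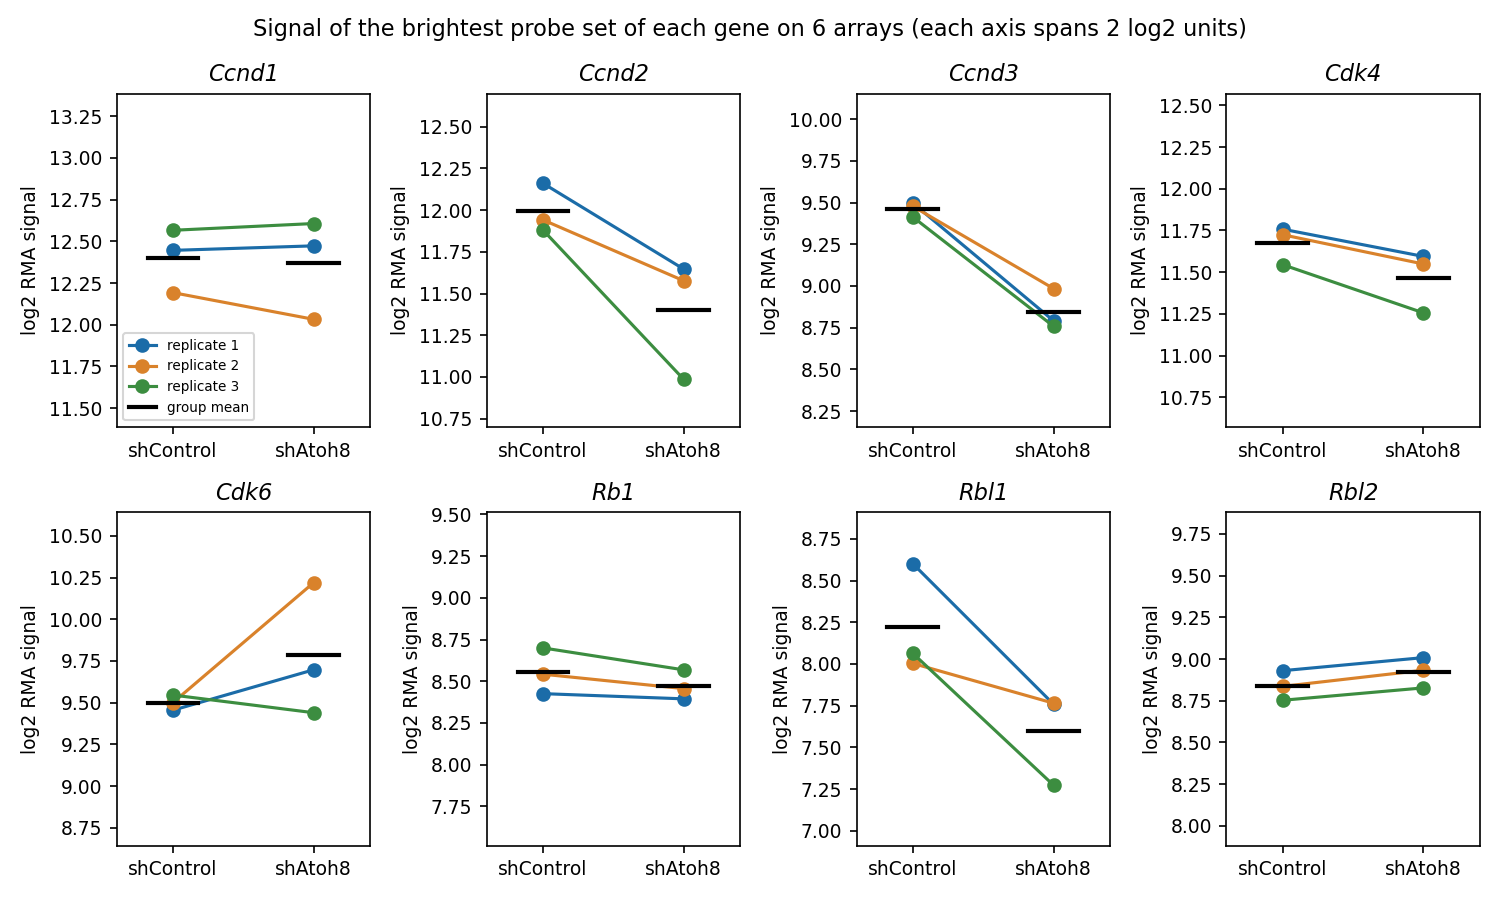
Log2 RMA signal of the brightest probe set of each of the 8 genes in shControl and shAtoh8, with lines joining arrays of the same replicate number and black bars for the group means (n = 3). Each vertical axis spans 2 log2 units. Ccnd2, Ccnd3 and Rbl1 have groups that do not overlap, and Ccnd1, Rb1 and Rbl2 are nearly level.

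Ccnd3, the D cyclin known for its role in lymphocyte development, read 9.50, 9.48 and 9.41 in shControl and 8.79, 8.98 and 8.76 in shAtoh8. All 3 shAtoh8 arrays lay below all 3 shControl arrays, with a gap wider than the spread within either group. Group means of 9.46 ± 0.04 and 8.84 ± 0.12 (SD, n = 3) gave a log2 change of -0.62 ± 0.09 (SE). It passed in limma over all 45037 probe sets (adjusted p = 0.0392, and 0.0293 with the replicate block).

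The call of Ccnd3 rests on nearly every array. With 1 array left out the log2 change stayed between -0.69 and -0.57, but the limma adjusted p rose to 0.115, 0.159 and 0.106 without shControl replicates 1, 2 and 3, and to 0.130 and 0.113 without shAtoh8 replicates 1 and 3. Without shAtoh8 replicate 2 it still passed (0.0458). Calls were lost across the arrays as a whole: 210 of all genes passed in the full fit, and 0 to 117 with 1 array left out.

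Of the other probe sets of Ccnd3, 1 went the other way and 1 had a smaller negative change. A dimmer set read 6.15, 6.16 and 5.81 in shControl and 6.18, 6.34 and 6.16 in shAtoh8, a change of 0.19 ± 0.12 (SE, limma adjusted p = 0.584). It was higher in all 3 replicate numbers, as were 9488 of 45037 probe sets. Its groups did not overlap, by a narrow margin, as for 4536 probe sets that were higher. The dimmest read 5.58, 5.84 and 5.87 against 5.70, 5.37 and 5.41, a change of -0.27 ± 0.13 (adjusted p = 0.406). When the 3 sets were averaged, the log2 change of Ccnd3 was -0.24 and did not pass (limma adjusted p = 0.150).

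Ccnd2, a D cyclin of pancreatic islet cells among others, read 12.16, 11.94 and 11.88 in shControl and 11.65, 11.58 and 10.99 in shAtoh8. The groups did not overlap, and shAtoh8 replicate 3 was the lowest array by a wide margin. This log2 change of -0.59 ± 0.18 (SE), or 1.51-fold, did not pass in limma (adjusted p = 0.197, and 0.0582 with the replicate block). Without shAtoh8 replicate 3 it was -0.38 (adjusted p = 0.285). Within replicate numbers 1, 2 and 3 the differences were -0.51, -0.36 and -0.89.

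Ccnd2 has 7 probe sets, and all had a negative log2 change, between -1.11 and -0.19. None passed in limma without or with the block (0 and 0), where 0.802% and 3.42% of all probe sets did in either direction. An unadjusted p under 0.05 was met by 3 of the 7, all lower. Over all probe sets 13.8% met it in either direction, and 3130 of 45037 met it and were lower. Of the 7 Ccnd2 sets, 6 read lower in all 3 replicate numbers, a pattern that 18.7% of all probe sets share. Sets that read the same transcript in the same RNA are not separate evidence.

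The size of the Ccnd2 difference depended on the probe set and the array. The set with the most negative change read 7.87, 7.73 and 7.99 in shControl and 7.68, 5.77 and 6.81 in shAtoh8. Its low value in shAtoh8 replicate 2, the array with the wide actin gap, moved the change from -0.61 without that array to -1.11 with it. A second set showed the same low array, with 9.54, 9.52 and 9.52 against 9.31, 8.05 and 8.59, and its change went from -0.88 to -0.58 without it. The part of RNA quality or of hybridisation in these low values was not tested. In replicate 1 the sets other than the main one differed by no more than 0.23 between the groups.

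Ccnd1, the D cyclin most widely used by epithelial cells, read 12.45, 12.19 and 12.57 in shControl and 12.47, 12.03 and 12.61 in shAtoh8. The groups overlapped almost completely, and replicate 2 was the lowest in both. The log2 fold change was -0.03 ± 0.17 (SE, limma adjusted p = 0.969), with a 95% interval of -0.42 to 0.36. This interval, from the fit without the replicate block, leaves room for a change of about 0.4 either way, so equal expression was not shown. With the block the SE was smaller, at 0.09 (limma adjusted p = 0.909).

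A second Ccnd1 probe set gave a log2 change of -0.03 ± 0.13 (SE) as well. The third read 11.09, 11.08 and 10.95 in shControl and 11.27, 9.55 and 11.27 in shAtoh8. Only shAtoh8 replicate 2 was low there, and without it the change turned from -0.34 to 0.23 (limma adjusted p = 0.379). The wide actin gap was on the same array, and its part in this value was not tested.

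**Figure D2:**
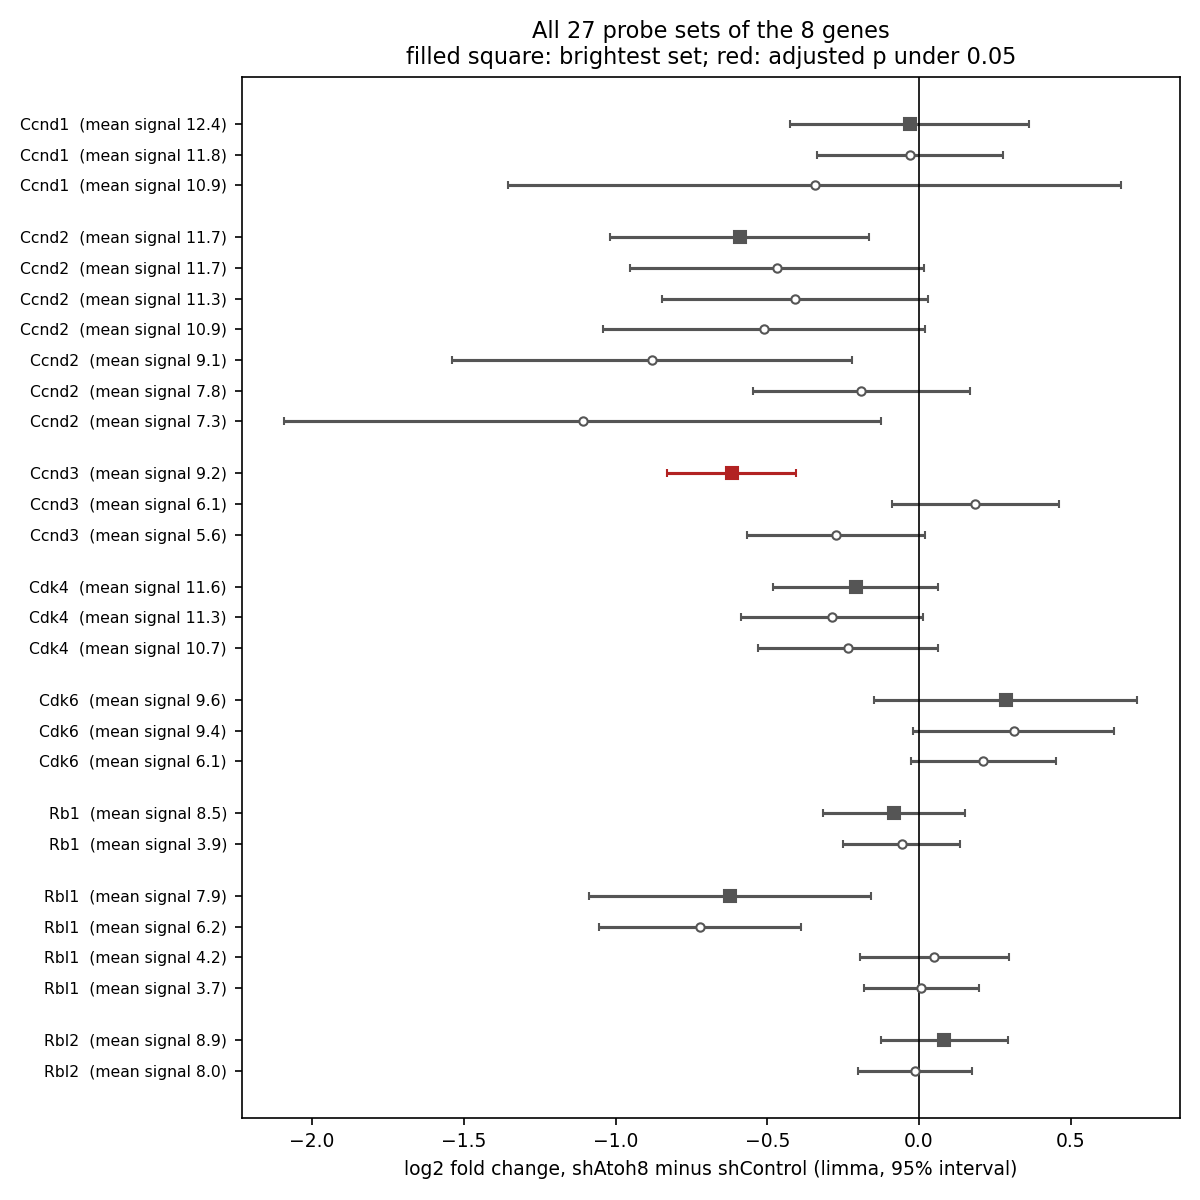
Log2 fold change (shAtoh8 minus shControl) with its 95% limma interval for all 27 probe sets, labelled by gene and mean log2 signal. Filled squares are the brightest set of each gene and red marks an adjusted p under 0.05. The main set of Ccnd3 (-0.62) is the 1 set past the threshold, and all 7 sets of Ccnd2 lie left of 0 while all 3 of Cdk6 lie right of it.

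Cdk4, a kinase partner of the D cyclins, read 11.76, 11.72 and 11.54 in shControl and 11.59, 11.55 and 11.26 in shAtoh8. The groups overlapped by a narrow margin, since shControl replicate 3 was below 2 of the shAtoh8 arrays. The log2 fold change was -0.21 ± 0.12 (SE, limma adjusted p = 0.522), and -0.10 without shAtoh8 replicate 3. All 3 Cdk4 probe sets were lower in every replicate number, a pattern that 18.7% of all probe sets share. The log2 differences were between -0.36 and -0.16, and the changes of the sets lay between -0.29 and -0.21. Sets that read 1 gene in the same RNA are not separate evidence. None passed in limma (0 in either fit, and 0 at an unadjusted p under 0.05 without the block). With the block the unadjusted p of the 3 sets was 0.0413, 0.0119 and 0.0311, and the adjusted p was 0.247, 0.128 and 0.212.

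Cdk6, the other kinase partner, read 9.46, 9.50 and 9.55 in shControl and 9.70, 10.22 and 9.44 in shAtoh8. The shControl arrays were close together, and the shAtoh8 arrays spread around them, with replicate 2 the highest and replicate 3 the lowest of all 6. Its log2 change was 0.29 ± 0.18 (SE, limma adjusted p = 0.597), and without shAtoh8 replicate 2 it was 0.07. The other sets of Cdk6 gave 0.31 ± 0.14 and 0.21 ± 0.10, and both were again higher in replicates 1 and 2 and not in 3.

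Rb1, the founding RB protein, read 8.43, 8.54 and 8.70 in shControl and 8.39, 8.46 and 8.57 in shAtoh8. The groups overlapped, and the order of the replicates was the same in both. A log2 change of -0.08 ± 0.10 (SE) had a 95% interval of -0.32 to 0.15 (limma adjusted p = 0.814). Its dim set, with signals of 3.82 to 4.01, gave -0.06 ± 0.08.

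Rbl1 (p107), the RB relative whose own gene is a textbook E2F target and whose promoter is printed above, read 8.60, 8.00 and 8.06 in shControl and 7.76, 7.76 and 7.27 in shAtoh8. The groups did not overlap, with shControl replicate 1 well above and shAtoh8 replicate 3 well below the rest. The mean log2 difference of Rbl1 was -0.62 ± 0.20 (SE), or 1.54-fold, and did not pass in limma (adjusted p = 0.211, and 0.0683 with the replicate block).

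A second Rbl1 probe set gave a tighter difference. It read 6.58, 6.37 and 6.75 in shControl and 5.94, 5.99 and 5.60 in shAtoh8, with every shAtoh8 array below every shControl array. Its log2 change was -0.72 ± 0.14 (SE), which also stayed above the threshold (limma adjusted p = 0.0741, and 0.0641 with the block). The other 2 sets of Rbl1 had signals of 3.62 to 4.38 and changes of 0.05 and 0.01.

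Rbl2 (p130), the RB relative most abundant in resting cells, read 8.93, 8.84 and 8.75 in shControl and 9.01, 8.93 and 8.83 in shAtoh8. Each shAtoh8 array was slightly above the shControl array of its number, and the groups overlapped. The log2 fold change was 0.08 ± 0.09 (SE, limma adjusted p = 0.788), with a 95% interval of -0.13 to 0.29. Its other set gave -0.01 ± 0.08.

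**Figure D3:**
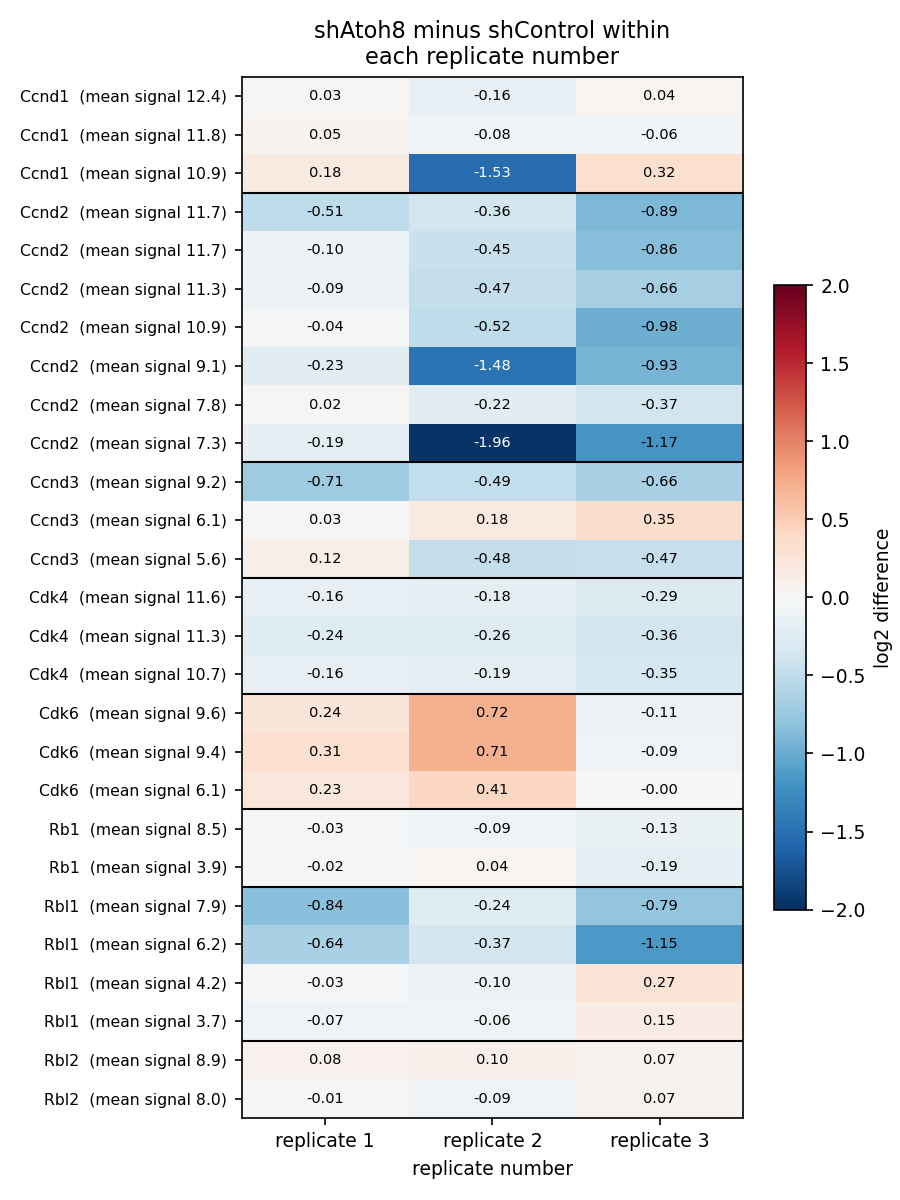
Log2 difference, shAtoh8 minus shControl, within each replicate number for the 27 probe sets, labelled by gene and mean log2 signal. Blue is lower and red higher in shAtoh8. The main Ccnd3 set is lower in all 3 columns (-0.71, -0.49 and -0.66), and the darkest cells of Ccnd1 and Ccnd2 stand in replicate 2.

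Counted together, 1 of the 8 genes passed in limma, lower in shAtoh8, where 0.638% of all genes did, and the same 1 passed with the replicate block, where 2.75% of all genes were lower. Ccnd2, Ccnd3 and Rbl1, 3 of the 8, were lower without overlap of the groups, as were 11.4% of all genes, and these 3 also had an unadjusted p under 0.05 in limma, against 17.5% of all genes in either direction. With so few genes the shares are a description. The median log2 change over the 8 was -0.15, and over all genes it was 0.01. Of the 27 probe sets, 20 had a negative change, as had 21019 of all 45037 probe sets. Several of the 27 read the same gene and are not separate evidence. Over all 27, shAtoh8 replicate 3 was the lowest array for 13 and shAtoh8 replicate 2 for 7, counts that were not made over all probe sets.

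Whether genes of one family changed unequally was compared through their within-array log2 differences, in 7 pairs chosen after the values were seen. Cdk4 minus Cdk6 gave 2.30, 2.22 and 2.00 in shControl, above the 1.90, 1.33 and 1.82 of shAtoh8, a change of -0.49 (two-sided exact permutation p = 0.1, n = 3 each, the smallest that 3 against 3 can give, and 0.28 after Benjamini-Hochberg adjustment). Rbl1 minus Rbl2 shifted by -0.71, also without overlap (exact permutation p = 0.1, adjusted 0.28). Ccnd1 minus Ccnd3 shifted by 0.59 and Ccnd1 minus Ccnd2 by 0.56, both with overlap of the groups (exact permutation p = 0.2 each, adjusted 0.28). Ccnd2 minus Ccnd3 shifted by 0.03 (exact permutation p = 1). The exact test over 3 arrays a group cannot pass, and it takes the arrays as unpaired, so these values are a description. Within replicate numbers 1, 2 and 3 the shifts were 0.73, 0.33 and 0.70 for Ccnd1 minus Ccnd3, and 0.54, 0.20 and 0.94 for Ccnd1 minus Ccnd2. They were -0.92, -0.34 and -0.86 for Rbl1 minus Rbl2 and -0.41, -0.89 and -0.18 for Cdk4 minus Cdk6. Rb1 minus Rbl1 shifted by 0.54 (exact permutation p = 0.2, adjusted 0.28), and by 0.81, 0.15 and 0.66 within numbers. Rb1 minus Rbl2 shifted by -0.17 (exact permutation p = 0.5, adjusted 0.58), and by -0.11, -0.18 and -0.21 within numbers. Every pair except Ccnd2 minus Ccnd3 kept 1 sign.

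The genes whose profile over the 6 arrays was nearest to that of Ccnd3, among 18192 others, were Def8, Dennd6a and Marchf2. After each gene was centred on its mean, the root mean square difference from Ccnd3 was 0.03 (log2) for Def8, 0.04 for Dennd6a and 0.05 for Marchf2. Their log2 changes were -0.60, -0.58 and -0.56. The first 2 passed in limma (adjusted p = 0.0387 and 0.0414), and Marchf2 did not (0.0580). These genes were picked for their likeness to Ccnd3 on the same arrays. Changes and p-values near those of Ccnd3 follow from that choice and are not separate results.

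The other genes of the pathway were read from 9 lists with 67 measured genes of 71. In limma 2 of the 67 fell and 0 rose, and with the replicate block 20 fell and 1 rose, beside 1.15% and 4.67% of all genes in either direction. The lists furthest downstream had the largest shifts, and those of RB corepressors and the CDK-activating kinase lay near the median of all genes.

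Among 7 inhibitors of the cyclin D and Cdk2 kinases, Cdkn1a (p21) rose with the replicate block and Cdkn2d (p19), an inhibitor of Cdk4 and Cdk6, fell with it. Cdkn1a went from 12.20 ± 0.08 to 12.71 ± 0.12 (SD, n = 3), a log2 change of 0.51 ± 0.09 (SE, limma adjusted p = 0.0624 without the block and 0.0366 with it). Cdkn2d went from 8.61 ± 0.12 to 7.96 ± 0.26, a change of -0.66 ± 0.14 (0.0905 and 0.0292). The other 5, Cdkn2a, Cdkn2b, Cdkn2c, Cdkn1b and Cdkn1c, had changes between -0.18 and 0.14 and did not pass.

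Of 10 E2F and DP factors, the partners that RB proteins restrain, 9 had a negative change (median -0.23), and E2f7 fell. E2f7, a repressor of E2F targets and itself one of them, changed by -0.91 ± 0.14 (SE, limma adjusted p = 0.0481, and 0.0385 with the block). Its call was lost when any of the 6 arrays was left out, with adjusted p between 0.0639 and 0.146 and changes between -1.04 and -0.78. The activator E2f1 read -0.31 and did not pass (0.193). Of the 6 genes of MuvB and its partner B-Myb, Mybl2, which encodes B-Myb, fell with the block alone (-0.85 ± 0.17 SE, limma adjusted p = 0.0741 and 0.0339), and the 5 MuvB genes did not pass.

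Of 7 genes of cyclin E, cyclin A, Cdk2 and its activators, 5 had a negative change (median -0.32) and none passed without the block (0, against 4 at an unadjusted p under 0.05 in limma). With it Ccna2, the S phase cyclin, fell (-1.02 ± 0.23 SE, adjusted p = 0.0294), as did Cks1b, a subunit of Cdk complexes (-0.66 ± 0.12, 0.0395). Cdc25a, the phosphatase that activates Cdk2, read 0.29 and did not pass.

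Of 7 genes that make, hold or remove D cyclins and Cdk4, Cdc37 and Myc fell with the block. Cdc37, the Hsp90 cochaperone that delivers Cdk4, changed by -0.76 ± 0.13 (SE, limma adjusted p = 0.0505, and 0.0327 with the block). Myc, a factor that raises Ccnd2 and Cdk4 transcription in other cells, changed by -1.01 ± 0.30 (0.181 and 0.0384). The ubiquitin ligase adaptor Ambra1, which marks D cyclins for degradation, read 0.20 (0.506), and the kinase Gsk3b, which phosphorylates Ccnd1, read -0.82 (0.677). That value rests on shAtoh8 replicate 2, at 7.25 against 9.61 to 9.92 on the other 5 arrays, and without it Gsk3b read 0.02. Without shControl replicate 3, the highest array for Myc, the change of Myc was -0.64.

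Among the 3 genes of the CDK-activating kinase and the 5 corepressors that RB proteins recruit, none passed in either limma fit (0, against 2 and 0 at an unadjusted p under 0.05). The genes with the smallest p were Ccnh, the cyclin of the activating kinase, at 0.21 ± 0.08 (SE, adjusted p = 0.319), and Arid4b at 0.15 ± 0.11 (0.663).

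The lists downstream of RB read lower throughout. All 13 S phase genes under E2F had a negative change, with a median of -0.62. None passed without the block (0, against 7 at an unadjusted p under 0.05 in limma) and 5 fell with it, among them the helicase subunits Mcm3 (-0.97 ± 0.31 SE, adjusted p = 0.0292 with the block), Mcm4 (-0.68 ± 0.25, 0.0318) and Mcm5 (-0.87 ± 0.36, 0.0480, and -0.49 without shAtoh8 replicate 3), and the nucleotide reductase subunit Rrm2 (-0.62 ± 0.19, 0.0307). All 9 G2 and mitotic genes had a negative change, with a median of -1.16. Cenpa, the centromeric histone, fell in both fits (-1.39 ± 0.21, adjusted p = 0.0416 and 0.0292). With the block 8 fell, among them the kinases Aurka (-1.17 ± 0.24, 0.0292) and Plk1 (-1.16 ± 0.25, 0.0345) and the anaphase activator Cdc20 (-1.07 ± 0.21, 0.0385). Cenpa lost its call in limma without shControl replicates 1, 2 and 3 (adjusted p = 0.118, 0.160 and 0.125) and without shAtoh8 replicate 1 (0.119). The lower signals of proliferation genes stood on the same arrays as the lower Ccnd3, and their part in the D cyclin and Rbl1 values was not tested.

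**Figure D4:**
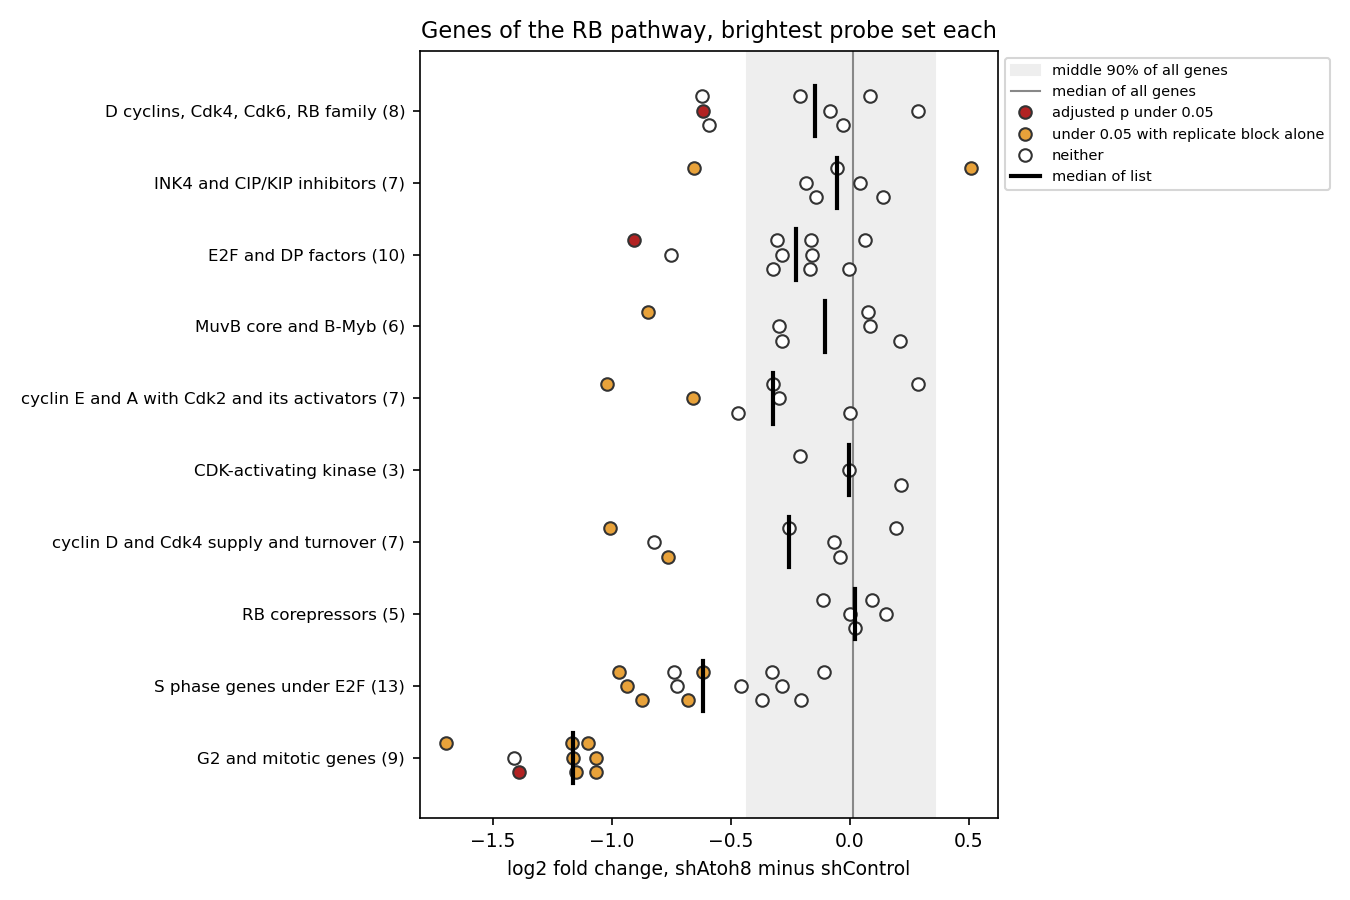
Log2 fold change (shAtoh8 minus shControl) of the 8 genes and of the 9 pathway lists, 1 point per gene, with black bars at list medians and a grey band for the middle 90% of all genes. The list medians of G2 and mitotic genes (-1.16) and S phase genes (-0.62) lie left of the band, and the median of the 8 genes (-0.15) lies inside it.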

How the data were processed

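The deposited values were log2 signals for 45101 probe sets, made by the authors with RMA in the affy package, per the submitters' processing notes; their versions are not stated there. RMA equalises the array distributions, so a general shift would not be seen. The 64 control probe sets were left out and 45037 were tested with no brightness filter, in limma 3.58.1 (R 4.3.3, lmFit and eBayes; residual degrees of freedom 4, prior 3.30), two-sided, with Benjamini-Hochberg adjustment over all probe sets and a threshold of 0.05. Genes were named from the platform annotation, where 34945 probe sets had 1 symbol, 932 several and 9160 none. All 27 symbols used for the 8 genes were the same in RefSeq (GRCm38.p6) by Entrez ID. The number of arrays limits precision.

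The 8 genes, the pathway lists and the tests were chosen with earlier results of these data known. Named were the 8 genes, the hairpin's target, the transgene, in each list up to 4 genes past the threshold in either fit or else that with the smallest p, and the 3 profiles nearest to any of the 8 genes that passed. Others were named after their values were seen.

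Deviations from group means correlated at 0.407, 0.187 and 0.433 between arrays of the same replicate number and at -0.351 to 0.0292 between different numbers. The numbers were therefore taken as pairs, and fits with the replicate block stand beside the others where calls or counts differ. Standard errors and intervals are those of limma without the block, also beside a p with it, except where an SE is said to be with the block. The fit was also run on simulated arrays with independent noise and no replicate effect, unlike the arrays here. That run was a check of the code, and its recovery of small changes is not reported here.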

Additional observations from a re-analysis of the deposited data

How the results depend on the processing

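Of the 8 genes under 13 other settings and 3 added after the data were seen, 114 of 128 values kept their direction and side of the threshold. That count says little about the call, since only Ccnd3 had a call to lose. It lost that call in 8 of the 16 settings. Ccnd3 lost its call as the mean of its probe sets (-0.24) and, over 1 array left out, ranged from -0.69 to -0.57. Ccnd1, at -0.03, turned to 0.038 with array weights and ranged from -0.15 to 0.14 with 1 array left out. Among the pathway genes named, Arid4b turned to -0.025 as the mean of its probe sets. The count of the 8 genes that passed was 1, 0 with probe set means, 0 to 1 with 1 array left out, and 1 with the replicate block, which changed no call among the 8. In the block fits without both arrays of replicate 1, 2 or 3, added after the data were seen, it was 0, 3 and 0. Without replicate 2 in that fit Ccnd2 (-0.70) and Rbl1 (-0.82) passed beside Ccnd3 (-0.68) and Ccnd1 read 0.034, while Ccnd3 read -0.57 and -0.60 without replicates 1 and 3 and did not pass. These fits keep 1 residual degree of freedom. Over all genes 210 passed, 849 with the replicate block, 324 with brighter probe sets, 339 with array weights, 459 with probe set means, 0 to 117 with 1 array left out, and 0, 966 and 0 in the block fits without replicates 1, 2 and 3. The 0 with 1 array left out came without shControl replicate 2 (2641 genes at an unadjusted p under 0.05 in limma). The causes were not tested.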

Other observations

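Beyond the D cyclins, Cdk4 and Cdk6, 39 other cyclin and numbered Cdk genes were measured, a set named after the values were seen. Of these, 19 had a negative and 20 a positive log2 change, with a median of 0.02. None passed in limma without the replicate block (0, against 11 at an unadjusted p under 0.05). That unadjusted threshold was met by 17.5% of all genes, and 4.67% of all genes passed after adjustment with the block. With it Cdk1, the mitotic kinase (-1.10 ± 0.23 SE, adjusted p = 0.0262), Ccnb2, its mitotic cyclin (-1.15 ± 0.26, 0.0382), and Ccna2 fell, and Ccnj rose (0.53 ± 0.12, 0.0381). Ccng1, a cyclin induced by p53, read 0.57 ± 0.12 and did not pass (0.0946 without the block and 0.0768 with it).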
